A study of Mus musculus with 16 samples.

Results

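Sites labelled by Myc in resting mouse B cells were described as 500 bp bins of chromosomes 1 to 19 that met a rule on 2 chromatin immunoprecipitation sequencing (ChIP-seq) libraries. A bin was taken when it held at least 12 reads in the Myc library of resting B cells (B0 Myc) and when its RPM (reads scaled to the library size) there were at least 4 times those of the matching IgG control (B0 IgG) plus 0.1 RPM. The rule gave 867 of the 4356269 bins with a read in any library, which is 0.0199%. These 867 bins were therefore selected on measured values of B0 Myc and B0 IgG, and both libraries are only described there. The other 14 libraries had no part in the choice.

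Myc is a transcription factor that binds DNA as a pair with Max, mostly at promoters and enhancers that are already open. Resting B cells carry little Myc, and activation by lipopolysaccharide (LPS), a bacterial product that B cells sense through a Toll-like receptor, induces it early. RNA polymerase II (Pol2) transcribes protein-coding genes and accumulates near their start sites, so its reads mark where transcription is engaged. 10058-F4 is a small molecule that hinders the pairing of Myc with Max.

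The series asks, by its title, whether Myc acts as a general amplifier of gene expression in mouse splenic lymphocytes. Anti-EGFP antibody pulled down the Myc fusion, so a Myc library reports tagged Myc (how the tag was introduced is not given in the labels), and control libraries used a non-specific IgG. B4 denotes B cells given 25 µg/ml of LPS for 4 h, with 2 Myc, 3 IgG and 1 Pol2 libraries. B4 with 10058-F4 had the same LPS treatment plus the compound, whose dose the labels do not give, with 1 Myc, 2 IgG and 1 Pol2 libraries. T4 and T14 denote T cells given the lectin and T cell mitogen concanavalin A (ConA), at 7.5 µg/ml for 4 h or 14 h, with 1 Myc and 1 IgG library each. B0 denotes B cells without LPS, with 1 Myc and 1 IgG library. All cells came from spleen, and neither the mouse strain nor the pooling of animals is given in the labels used here.

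Reads on chromosomes 1 to 19 numbered between 1278471 (B4 IgG replicate 2) and 7433203 (B0 Myc, the deepest library). Read lengths were 45 bases in most libraries, B0 included, but 25 in those of T cells and 24 to 30 in replicate 1 of B4 Myc and of B4 IgG. The X chromosome held 4.07 and 4.55% as many reads as chromosomes 1 to 19 in the B4 Myc libraries, against 2.31% in B0 Myc and 2.47% in B0 IgG. Other B4 libraries fell on either side: the share was 4.18 and 4.26% in B4 IgG replicates 1 and 3, but 1.99% in B4 IgG replicate 2 and 1.93% in B4 Pol2. With 10058-F4 it was 3.68% in Myc, 2.14 and 3.60% in the IgG libraries and 1.72% in Pol2. The IgG groups thus mixed both kinds, and the part of this in any result below was not tested. B4 Pol2 and B4 IgG replicate 2 carry the mark wt in their titles, whose meaning was not given. For T14 the titles and the file names give opposite antibodies, so these are called the library labelled T14 Myc and the library labelled T14 IgG, and no change over time is drawn from them.

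The sites were small, scattered and close to the limit of the rule. Touching bins merged into 863 sites, of which 859 were a single bin and 4 were 2 bins long. The median distance from a member to the next was 1051 kb, and 15 members lay within 10 kb of the next one. B0 Myc held 12 reads at 449 members, 13 at 184, 14 to 17 at 178 and 18 or more at 56, with a highest value of 29. The mean B0 Myc bin held 1.71 reads. B0 IgG held 0 reads at 275 members, 1 at 556, 2 at 33 and 3 at 3.

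Many bins lay just outside the rule. A further 966 bins met the fold with 11 B0 Myc reads, which is more than the 867 that met the whole rule. Among bins with at least 12 reads, 323 members had a ratio of 4 to 5 and 247 bins had a ratio of 3 to 4. In all, 5524 bins held at least 12 B0 Myc reads, and the 867 members were 15.7% of them. The other 4657 bins failed on B0 IgG, and they serve below as the nearest set for comparison.

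The bins that failed on IgG had the higher mean RPM in all 16 libraries. B0 Myc averaged 1.78 RPM at the members and 2.40 RPM at the 4657 failed bins, and B0 IgG averaged 0.177 RPM at the members and 1.83 RPM at the failed bins. B4 Pol2 averaged 5.01 RPM at the members and 9.17 RPM at the failed bins. The members were therefore not the bins with most B0 Myc reads but those with many Myc reads where B0 IgG was low.

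Members were spread over all 19 chromosomes, from 19 on chromosomes 14 and 16 to 71 on chromosome 2. Per 100000 bins the range ran from 8.45 on chromosome 3 to 34.3 on chromosome 17, with 30.1 on chromosome 11 and 29.3 on chromosome 19. Chromosomes with more B4 Pol2 bins held more members: the share of bins with B4 Pol2 was 0.983% on chromosome 3, 2.17% on chromosome 17 and 2.69% on chromosome 11. Over the 19 chromosomes the density of members and this share had a Pearson r of 0.86 and a Spearman rho of 0.85. This is a description, since all chromosomes share the same libraries.

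B0 Myc reads at the members came from both strands. Within 1 kb around the bin, 864 of 867 members had at least 3 B0 Myc reads on each strand, as had 4650 of 4657 failed bins. Both sets were chosen for at least 12 B0 Myc reads, which largely sets this count. The median midpoint of minus-strand reads lay 63 bases to the right of that of plus-strand reads, the order that fragments read from both ends give, and the shift was above 0 at 72.0% of these bins. The same shift was 70.8 bases at the failed bins.

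All libraries but B0 IgG were above the genome mean of 0.23 RPM per bin at the members, the IgG controls included. Myc libraries other than B0 averaged 0.775 RPM in B4 with 10058-F4, 1.21 and 0.801 RPM in B4, and 0.852 RPM in T4. Control libraries averaged 0.654 and 0.571 RPM in B4 IgG with 10058-F4, 0.506, 0.996 and 0.452 RPM in B4 IgG, and 0.441 RPM in T4 IgG. B4 IgG replicate 2 thus lay above B4 Myc replicate 2, and the Myc and IgG libraries of B4 overlapped. The library labelled T14 Myc averaged 0.261 RPM and the library labelled T14 IgG 0.948 RPM. B0 IgG, at 0.177 RPM, was at 0.77 times its genome mean, where the 6 IgG libraries of B4, B4 with 10058-F4 and T4 were at 1.92 to 4.34 times theirs.

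**Figure D1:**
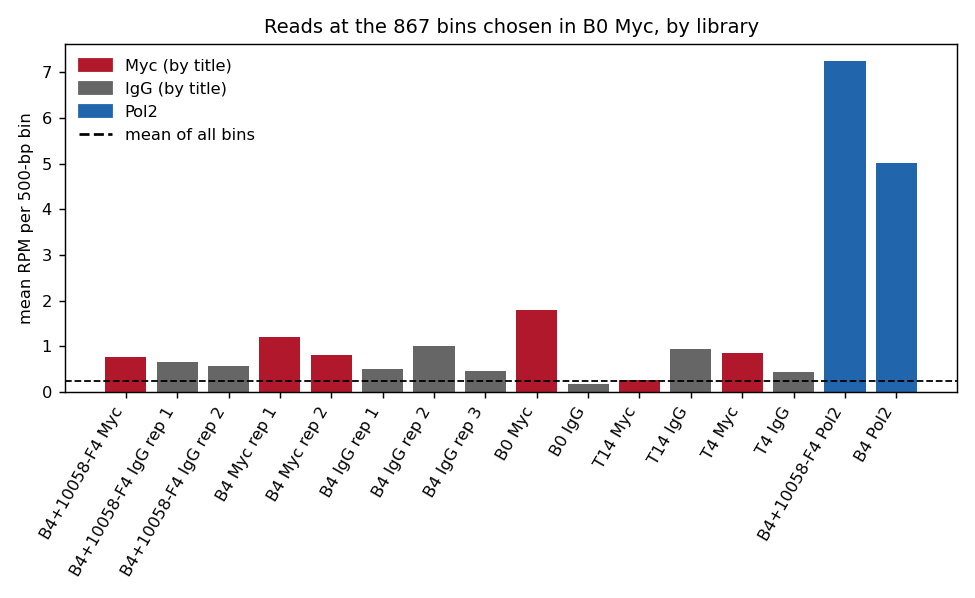
Mean RPM per 500 bp bin over the 867 members in each of the 16 libraries, with the mean of all bins (0.23 RPM) as a dashed line. B0 Myc and B0 IgG chose the bins. The Pol2 bars stand far above the rest at 7.25 RPM with 10058-F4 and 5.01 RPM in B4, B4 IgG replicate 2 is higher than B4 Myc replicate 2, and only B0 IgG is below the line.

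The reads of most libraries peaked at the chosen bin, while B0 IgG had a dip there. B0 Myc averaged 1.78 RPM in the member bin and 0.57 RPM in each of the 2 bins beside it. B0 IgG averaged 0.177 RPM in the member bin, 0.45 RPM in each bin beside it and 0.396 RPM at 1 kb on both sides. The low B0 IgG value was thus limited to the bin in which the rule asked for it. B4 IgG replicate 2 showed the opposite shape, with 0.996 RPM in the member bin and 0.583 and 0.622 RPM beside it. Pol2 also centred on the bins, with 5.01 RPM in B4 and 2.46 and 2.62 RPM in the bins beside it.

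**Figure D2:**
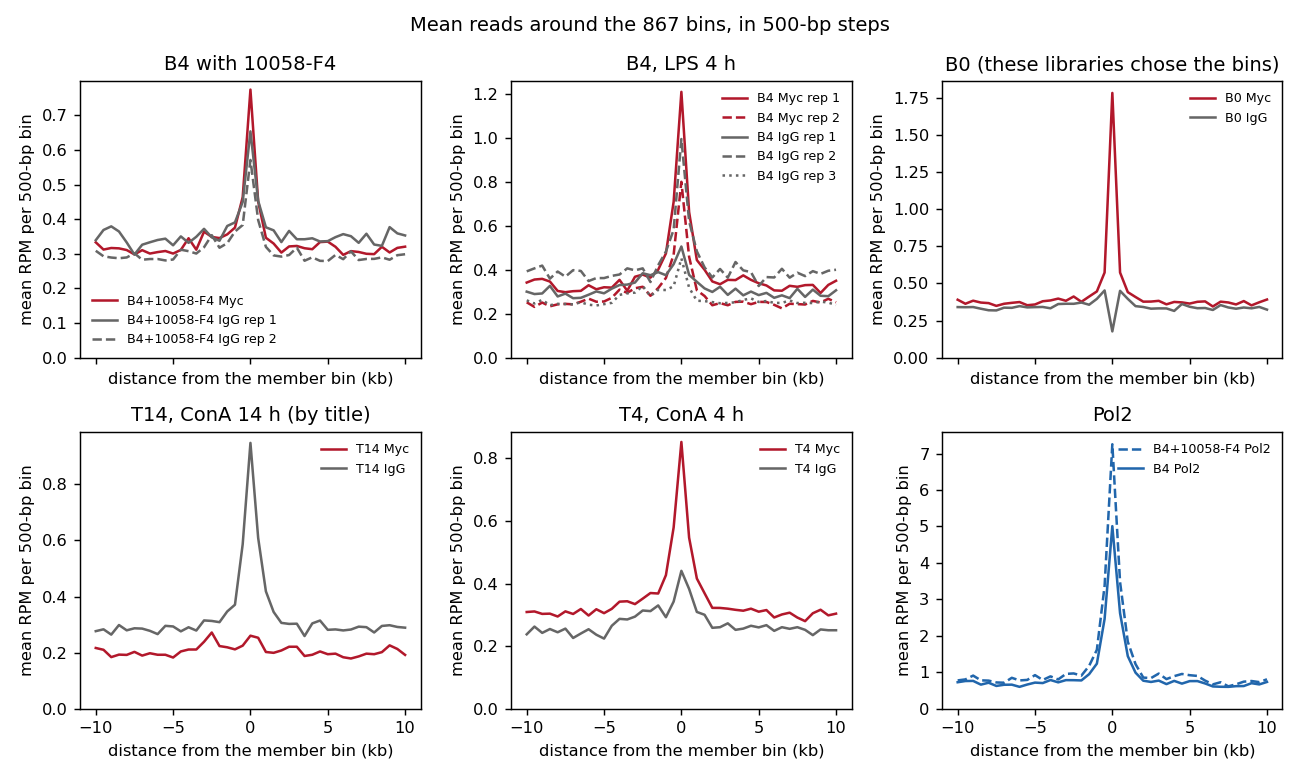
Mean RPM per 500 bp bin against distance from the member bin, up to 10 kb on either side, for the libraries of each cell state. Panels have their own vertical scales from 0. B0 Myc is highest at the centre (1.78 RPM), B0 IgG falls to 0.177 RPM there from 0.45 RPM in the adjacent bins, and the IgG libraries of B4 and of B4 with 10058-F4 rise at the centre.

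How far B0 Myc stood above a control depended on which control was used. Summed over the members, B0 Myc was 10.1 times B0 IgG, as the rule required. Against single IgG libraries of other cells it was between 1.79 times (B4 IgG replicate 2) and 4.05 times (T4 IgG), and 1.88 times the library labelled T14 IgG. The fold of the rule was still met by 486 members against B4 IgG replicate 1, by 333 against B4 IgG replicate 2 and by 278 against B4 IgG with 10058-F4 replicate 2. Against the mean of the 6 B cell IgG libraries 229 members, 26.4%, met it. That mean includes B0 IgG, which the rule required to be low at these bins. These counts describe bins already selected on B0 IgG.

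After 4 h of LPS, Myc at these sites was modestly above IgG in summed reads, with B4 Myc and B4 IgG libraries overlapping. The difference of the group means was 0.69 on the log2 scale (SD 0.42 over 2 Myc libraries and 0.62 over 3 IgG libraries). Single pairs of a Myc and an IgG library gave values from -0.31 to 1.42. At the failed bins the same difference was 0.59. In both B4 Myc libraries RPM was above all 3 B4 IgG libraries at 135 members, 15.6%, against 7.30% of all bins and 26.9% of the failed bins. In 44 members, 5.07%, both Myc libraries were below all 3 IgG libraries, against 2.51% of all bins and 3.61% of the failed bins.

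B4 Myc was usually lower in RPM than B0 Myc at bins chosen for high B0 Myc, a direction that the choice favours. Both B4 Myc libraries were below B0 Myc at 633 members, 73.0%, against 53.2% of the failed bins and 32.5% of all bins. Both were at or above it at 58 members, 6.69%, against 15.4% of the failed bins and 40.3% of all bins. At 106 members, 12.2%, neither B4 Myc library had a read, against 4.02% of the failed bins and 36.8% of all bins. B4 Myc replicate 1, with 2261410 reads, had 0 reads at 303 members, and replicate 2 had 0 at 196.

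A fixed fold was applied to the other libraries, at least 1.61 RPM (the RPM of 12 B0 Myc reads) and at least 4 times the mean of their own IgG libraries plus 0.1 RPM. That RPM took 4 reads in B4 Myc replicate 1 and in B4 Pol2, and 6 in B4 Myc replicate 2 and in Myc with 10058-F4. It took 8 reads in T4 Myc, 9 in Pol2 with 10058-F4, and 4 and 6 in the libraries labelled T14 Myc and T14 IgG. Counts from different libraries thus rest on unlike read minima. In B4 Myc replicate 1, 85 members (9.80%) passed the fold, against 1.14% of all bins. In B4 Myc replicate 2, 27 members (3.11%) passed, against 0.0585% of all bins. The failed bins passed more often, at 17.3% in replicate 1 and 7.67% in replicate 2. Both replicates passed at 21 members, which is 2.42% of the members and 2.80% of the 751 bins passing in both.

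The test across the genome called few bins with libraries taken as unpaired, as here, and more with libraries paired by title, given below. Of 101175 bins with at least 10 reads over the 5 B4 libraries, 380 were members, and the other members were too low to be tested. limma called 42 bins higher in B4 Myc than in B4 IgG and 0 lower at an adjusted p below 0.05, which is 0.0415% higher. Among the members it called 1 higher and 0 lower. Of the 380 members, 84 had an unadjusted p below 0.05, all of them higher, against 6661 of the 101175 bins, 6383 of them higher. The contrast was smaller among bins with at least 20 reads, where 46 of 105 members and 1436 of 4209 bins had such a p. The median log2 fold there was 1.65 at members and 1.34 at all bins, against 0.99 and 0.10 with at least 10 reads. The count of called members rested on single libraries. It was 0 without B4 IgG replicate 3 and 2 without B4 IgG replicate 2, against 0 and 39 of all bins. Without B4 Myc replicate 1 or 2, which leaves 1 Myc library, the median log2 fold of members was 0.70 or 1.54. Over all bins tested it was -0.047 or 0.81.

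The called member was 1:88189501-88190000 (mm8), which also had the highest B4 Myc minus IgG value. It held 43 and 30 reads in the B4 Myc libraries, against 0, 0 and 4 reads in the B4 IgG libraries. Myc and IgG libraries did not overlap there, and limma gave a log2 fold of 4.92 (SE 0.99) with an adjusted p of 0.0059. In resting cells it held 18 reads in B0 Myc and 1 in B0 IgG. It held 25 reads in T4 Myc and 2 in T4 IgG, and 2 reads in the library labelled T14 Myc and 48 in the library labelled T14 IgG. Pol2 had 39 reads with 10058-F4 and 39 in B4, or 7.60 and 16.4 RPM.

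The next 4 sites by B4 Myc minus IgG had the same shape without passing the test. At 2:167898501-167899000 B4 Myc had 28 and 10 reads and B4 IgG had 1, 0 and 0, with an adjusted p of 0.058 from limma. At 8:126907001-126907500 B4 Myc had 20 and 20 reads and B4 IgG had 2, 0 and 2, and limma gave an adjusted p of 0.05005, just above the threshold. At 2:128792501-128793000 B4 Myc had 25 and 16 reads, and B4 IgG 4, 0 and 2. At 7:45572501-45573000 B4 Myc had 26 and 13 reads, and B4 IgG 1, 1 and 6. At these 4 sites every B4 Myc library was above every B4 IgG library in RPM.

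At the other end, 3 sites had less B4 Myc than B4 IgG by RPM. At 15:78858001-78858500 B4 Myc had 1 and 1 reads and B4 IgG had 10, 7 and 1. At 11:95502001-95502500 neither B4 Myc library had a read, B4 IgG had 3, 6 and 1, and B0 Myc had 17. At 7:15278501-15279000 B4 Myc had 0 and 3 reads, B4 IgG had 2, 7 and 2, and B0 Myc had 17. At all 3 sites the highest of the B4 Myc and B4 IgG values was that of B4 IgG replicate 2, at 5.48, 4.69 and 5.48 RPM.

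**Figure D3:**
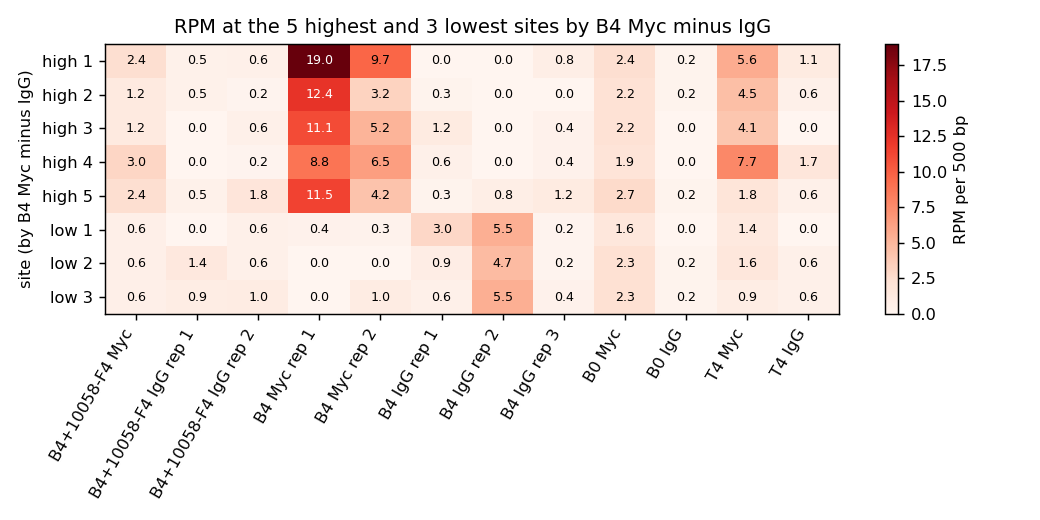
RPM per 500 bp at the 5 member sites highest in B4 Myc minus B4 IgG and the 3 lowest, by library, with the value printed in each cell. The 5 high sites have 8.84 to 19.02 RPM in B4 Myc replicate 1 and 3.23 to 9.68 RPM in replicate 2, while the 3 low sites owe their place mainly to B4 IgG replicate 2 at 4.69 to 5.48 RPM.

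With 10058-F4, Myc at the members stayed close to its IgG controls. Summed reads gave 0.775 RPM in the Myc library, against 0.654 and 0.571 RPM in the IgG libraries, a log2 difference of 0.34 (0.24 and 0.44 against the single IgG libraries). The Myc library lay above both of its IgG libraries. Its difference over IgG was smaller than the 0.69 without the compound, but the B4 Myc to IgG pairs, from -0.31 to 1.42, spanned it. The Myc library with 10058-F4 was below both B4 Myc libraries at 278 members (32.1%) and above both at 261 (30.1%). These shares were 13.05% and 24.1% for all bins, and 36.8% and 28.6% for the failed bins.

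No member passed the test of the compound. In limma, 0 of 75417 bins with at least 16 reads over the 8 libraries differed in Myc minus IgG between B4 with 10058-F4 and B4 at an adjusted p below 0.05, which is 0% of bins. Of the 416 members tested, 0 were called and 15 had an unadjusted p below 0.05, 4 of them higher with 10058-F4, against 1881 of all 75417 bins, 832 of them higher; with limma-trend the counts were 0 and 14. At 1:88189501-88190000 Myc had 8 reads with 10058-F4, against 43 and 30 reads in B4, and limma gave a log2 difference of -3.10 (SE 1.49) with an adjusted p of 1.00. The lone Myc library with the compound is assumed to vary like the replicated groups, so this test found no change that its error could resolve. By the fixed fold 18 members, 2.08%, passed in the Myc library with 10058-F4, against 0.106% of all bins and 3.61% of the failed bins.

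Myc in T cells after 4 h of ConA was above its IgG at sites chosen in resting B cells. Summed reads gave 0.852 RPM in T4 Myc and 0.441 RPM in T4 IgG, a log2 ratio of 0.95 (95% counting interval 0.83 to 1.07, 1 library on each side). At the failed bins the ratio of summed reads was 0.13, with up to 472 T4 IgG reads in a single bin (median 1). The median RPM of the failed bins was 1.13 in T4 Myc and 0.564 in T4 IgG, against 0.677 and 0 at the members. The lower ratio of sums thus does not show that T4 Myc was particular to the members. T4 Myc was above T4 IgG at 575 members (66.3%) and below at 221 (25.5%), against 41.0% and 27.3% of all bins and 71.8% and 24.8% of the failed bins. T4 Myc had 4429042 reads in all and T4 IgG 1774572, and 115 members had 0 reads in T4 Myc, against 466 in T4 IgG. The part of depth in these shares was not tested.

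By the fixed fold 59 members (6.81%) passed in T4 Myc, against 0.0716% of all bins and 11.9% of the failed bins. Of these 59 members, 57 also had B4 Pol2 by the same fold, 96.6%, against 64.8% of all bins passing in T4 Myc. At 8:126907001-126907500 T4 Myc had 34 reads and T4 IgG 3. At 7:139988501-139989500, one of the 5 sites with most B0 Myc reads, T4 Myc had 33 reads and T4 IgG 1.

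At 14 h of ConA the 2 libraries stood in the opposite order to their labels. The library labelled T14 Myc averaged 0.261 RPM at the members and the library labelled T14 IgG 0.948 RPM, a log2 ratio of -1.86 (95% counting interval -2.0005 to -1.73). By the fixed fold 3 members (0.35%) passed in the library labelled T14 Myc, against 0.507% of all bins and 0.67% of the failed bins. In the library labelled T14 IgG over the library labelled T14 Myc, 90 members (10.4%) passed. There the shares were 0.16% of all bins and 20.3% of the failed bins. Across the 867 members the reads of T4 Myc and of the library labelled T14 IgG had a Spearman rho of 0.50, given as a description.

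Pol2 of LPS-treated cells split the members into 2 classes of similar size. By the fixed fold 466 members (53.7%) had Pol2 in B4 with 10058-F4, against 1.35% of all bins. B4 Pol2 was called at 395 members (45.6%), against 1.46% of all bins. One or both Pol2 libraries passed at 493 members, 56.9%, against 2.05% of all bins. The failed bins passed at 71.6% in Pol2 with 10058-F4 and at 65.7% in B4 Pol2. Summed Pol2 was 7.25 RPM with 10058-F4 and 5.01 RPM in B4, with log2 ratios to their own IgG libraries of 3.57 and 3.04, from 1 Pol2 library each. Across the members the reads of both Pol2 libraries had a Spearman rho of 0.89.

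The remaining 472 members had no B4 Pol2 call in the bin itself, and for most there was none close by. Pol2 reads were not absent there. B4 Pol2 averaged 0.919 RPM and Pol2 with 10058-F4 1.63 RPM, 4.00 and 7.11 times the mean of all bins. The call also asks for a fold over B4 IgG. These 472 are named members without Pol2 below only because they lack the call. Within 1 kb 88 of them had a bin with B4 Pol2, 18.6%, and within 5 kb 187 had one, 39.6%. Over all bins these shares were 4.89% and 14.0%. At 61 members, 7.04%, neither Pol2 library had a read, against 49.1% of all bins. There B0 Myc averaged 1.68 RPM and the B4 Myc libraries averaged 0.254 and 0.481 RPM, against 0.268, 0.474 and 0.387 RPM in B4 IgG.

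In B4, Myc stood above IgG at members with B4 Pol2 and overlapped it at those without. B0 Myc, limited by the rule, averaged 1.87 RPM at the 395 with Pol2 and 1.71 RPM at the 472 without. At members with Pol2, B4 Myc averaged 2.06 and 1.28 RPM, against 0.592, 1.07 and 0.543 RPM in B4 IgG, with both Myc libraries above all 3 IgG libraries. At members without Pol2, B4 Myc averaged 0.502 and 0.403 RPM, against 0.435, 0.933 and 0.376 RPM in B4 IgG, and the libraries overlapped. The log2 difference of B4 Myc over B4 IgG was 1.21 with Pol2 and -0.25 without. Single pairs of libraries gave 0.25 to 1.92 with Pol2 and -1.21 to 0.42 without. At members without Pol2, B4 IgG replicate 2 was the only B4 IgG library above both B4 Myc libraries, and the negative sign rested on it. B4 Pol2 was called over the same B4 IgG libraries, so a bin with low B4 IgG is favoured in both.

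T4 Myc averaged 1.31 RPM at members with B4 Pol2, against 0.546 RPM in T4 IgG, a log2 ratio of 1.27 (95% counting interval 1.11 to 1.43). At members without B4 Pol2 it averaged 0.465 RPM, against 0.352 RPM in T4 IgG, a log2 ratio of 0.40 (0.21 to 0.59). Both intervals cover counting error only, with 1 library on each side. With 10058-F4 the log2 difference of Myc over IgG was 0.50 at members with Pol2 and 0.12 at members without.

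Ordering the members by B4 Pol2 into 4 classes of nearly equal size showed the same dependence in steps. B4 Pol2 reads ran from 0 to 1 in the lowest class and from 19 to 104 in the highest. From the lowest to the highest class, the log2 difference of B4 Myc over B4 IgG was -0.19, -0.33, 0.60 and 1.34. In the lowest class and the next, only B4 IgG replicate 2, at 0.606 and 0.818 RPM, was above both B4 Myc libraries. For T4 it was 0.03, 0.53, 0.89 and 1.495, and with 10058-F4 it was 0.08, 0.19, 0.29 and 0.59. Myc exceeded IgG most in the highest class in each state, and with 10058-F4 the step was the smallest of the 3 states; these differences were not tested.

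**Figure D4:**
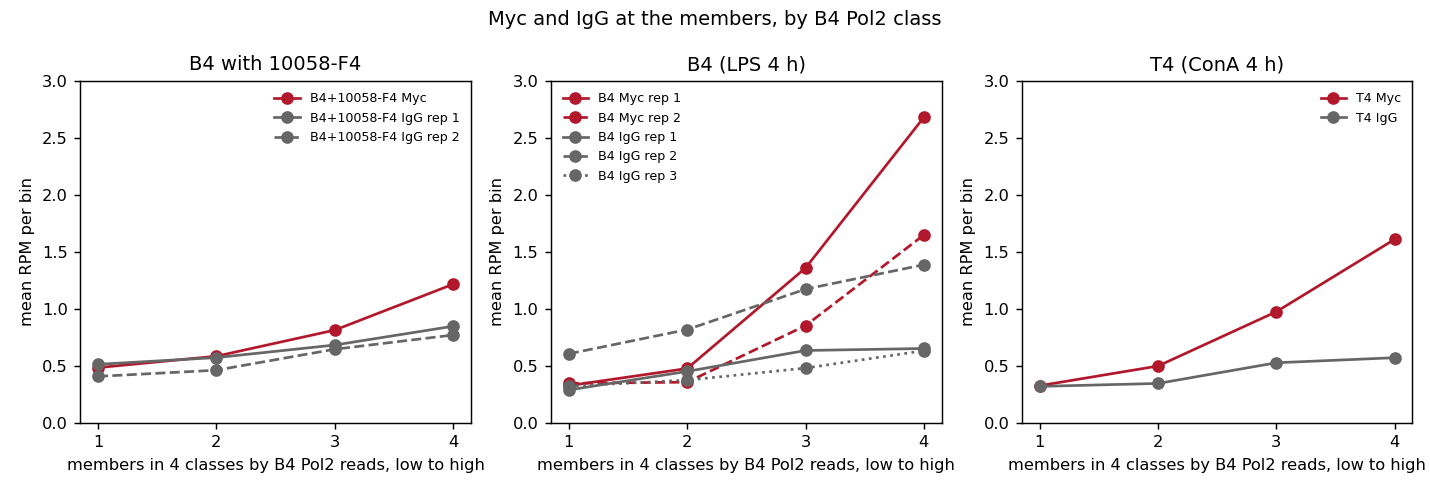
Mean RPM per bin of Myc and IgG libraries at the members, in 4 classes of B4 Pol2 reads from low to high, in B4 with 10058-F4, in B4 and in T4. In the highest class both B4 Myc libraries stand above all 3 B4 IgG libraries, and in the lowest class they lie among them.

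The B4 IgG libraries also had more reads where Pol2 was high, so part of the Pol2 pattern is shared by these controls. Across the 867 members the Spearman rho with B4 Pol2 reads was 0.59 and 0.61 for the B4 Myc libraries and 0.61 for T4 Myc. For the 3 B4 IgG libraries it was 0.30 to 0.31. It was 0.54 for the library labelled T14 IgG, which is not counted as a control here because its file name gives the other antibody. B0 Myc reads, whose range the rule limits, had a rho of 0.36 with B4 Pol2, and 0.25 and 0.27 with the B4 Myc libraries. These are descriptions over bins that share libraries and local sequence.

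Members with more B0 Myc reads had more Pol2 and more Myc in the other libraries. B4 Pol2 averaged 3.45 RPM at members with 12 B0 Myc reads, 4.77 RPM with 13, 7.06 RPM with 14 to 17 and 11.8 RPM with 18 or more. The mean of B4 Myc over its libraries was 0.737, 0.963, 1.27 and 2.46 RPM in the same order. The mean of B4 IgG was 0.560, 0.667, 0.751 and 1.02 RPM. At the 966 bins with 11 reads just outside the rule, B4 Pol2 averaged 2.44 RPM, B4 Myc 0.578 RPM and B4 IgG 0.490 RPM. The read limit of the rule thus marked no break in these values. Values differed more across the fold limit. At the 247 bins with a ratio of 3 to 4, B4 Pol2 averaged 9.55 RPM, B4 Myc 2.13 RPM and B4 IgG 0.825 RPM. At the 323 members with a ratio of 4 to 5 these were 4.83, 0.966 and 0.645 RPM. The median B0 Myc reads were 15 and 12.

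The 5 sites with most B0 Myc reads had much Pol2 and varied in Myc after LPS. The first of these, 19:46357501-46358500, held 35 B0 Myc and 2 B0 IgG reads over 2 bins. B4 Myc had 7 and 10 reads there, against 15, 7 and 9 in B4 IgG, so B4 Myc and B4 IgG overlapped in RPM, while Pol2 had 365 reads with 10058-F4 and 142 in B4. At 5:122614501-122615500 B4 Myc had 4 and 11 reads, against 6, 4 and 7 in B4 IgG, and B4 Pol2 had 64. At 10:77701001-77702000 B4 Myc had 5 and 7 reads, against 3, 4 and 3 in B4 IgG, and T4 Myc had 19 reads, against 0 in T4 IgG.

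At 3:79714501-79715000, the single bin with most B0 Myc reads (29, against 3 in B0 IgG), B4 Myc had 7 and 5 reads, against 2, 0 and 8 in B4 IgG. The Myc library with 10058-F4 had 14 reads there, against 2 and 7 in its IgG libraries. At 7:139988501-139989500 B4 Myc had 22 and 17 reads, against 8, 1 and 3 in B4 IgG. Of these 5 sites it was the one where B4 Myc and B4 IgG stood furthest apart.

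The 5 sites with most B4 Pol2 varied in B4 Myc. At 10:96046501-96047000, the highest, Pol2 had 272 reads with 10058-F4 and 104 in B4, while B4 Myc had 2 and 8 reads, against 1, 0 and 4 in B4 IgG. At 5:122094501-122095000 B4 Pol2 had 97 reads and B4 Myc 4 and 5, against 3, 1 and 3 in B4 IgG. At 2:90871001-90871500 B4 Pol2 had 91 reads and B4 Myc 10 and 7, against 3, 0 and 3 in B4 IgG. The fourth, 2:167898501-167899000, with 83 B4 Pol2 reads, is also the second by B4 Myc minus IgG. At 11:98984001-98984500 B4 Pol2 had 79 reads, and B4 Myc had 20 reads in replicate 1 and 3 in replicate 2, against 2, 2 and 8 in B4 IgG.

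Some members had many reads in IgG libraries other than B0 IgG. At 1:24570001-24570500, the highest by the mean of the 7 other IgG libraries, B0 Myc had 13 reads and B0 IgG 1. B4 Myc had 0 and 25 reads, against 20, 2 and 22 in B4 IgG, and the Myc library with 10058-F4 had 22, against 1 and 16 in its IgG libraries. Neither Pol2 library had a read there. The other 2 sites of highest mean IgG, 8:126907001-126907500 and 1:88189501-88190000, owe that place to the library labelled T14 IgG, with 49 and 48 reads.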

How the data were processed

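The deposited files hold aligned reads, 1 a line with their position, length and strand. The authors gave no counts or normalised values. The build was mm8 and the tools were Bowtie 0.12.7 and CASAVA 1.0, per the submitters' processing notes; their settings are not given in the sources used here. The first base may be numbered 0 or 1, which shifts coordinates by at most 1 base. Genes and sequences are not used here, because no mm8 annotation was.

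Each read was placed by its midpoint in 500 bp bins of chromosomes 1 to 19, with duplicates kept, and RPM used the reads of those chromosomes. Samples were grouped by title. Log2 ratios are differences of group means of log2 RPM summed over members. limma 3.58.1 (R 4.3.3) with voom weights tested all bins with at least 10 reads over 5 B4 libraries, or at least 16 over 8 libraries for 10058-F4, two-sided, with Benjamini-Hochberg adjustment at 0.05, and was tested on simulated data. Counting used Python 3.11.15, NumPy 2.4.6 and pandas 2.3.3, and intervals SciPy 1.17.1. Intervals cover counting error only. Reads carry no molecular identifiers. Libraries of a group differed beyond sampling noise (chi-square per degree of freedom 12.9 to 69.7 in 1 Mb windows) and each was counted. Separate animals are not named in the labels, so the p-values cover only the spread between libraries. ChIP and IgG libraries were matched by cell state, since no closer pairing is stated.

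Members, named sites (the 5 with most B0 Myc reads, the 5 highest and 3 lowest by B4 Myc minus IgG, the 5 highest by B4 Pol2 and the 3 highest by other IgG) and tests were chosen with earlier results of these data known. Alternatives covered the read minimum, fold, pseudocount, bin width and position, control, duplicates, library size, depth and each replicate left out.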

Additional observations from a re-analysis of the deposited data

Results flagged for a closer look

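At the 867 members the T14 libraries, taken by their labels, had a log2 ratio of Myc over IgG of -1.86, while the ratio of T4 Myc over T4 IgG was 0.95. It stands out because the ratios have opposite signs, with 1 library on each side. With the T14 labels exchanged, as the file names give them, it would be 1.86, the same sign as in T4. The difference was not tested.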

How the results depend on the processing

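The number of members depended on the limits of the rule. As a percentage of the 867, it was 519% with bins of 1000 bases, 313% with 10 reads, 16.4% with 15 reads and 36.7% with 6 times. It was 49.5% with 0.2 RPM added, and 47.3% with the mean of the 6 B cell IgG libraries, B0 IgG included, as control. With B0 Myc thinned to the 4108310 reads of B0 IgG, where 7 reads pass the same RPM, it was 399.9%. Reads kept once per position, shifted midpoints, shifted bins, 3 times and 0.05 RPM gave 867 to 1114 members. The log2 ratio as a median over members was 0.13 with 10058-F4, 0.23 for B4 Myc over IgG (against 0.69 from summed reads), 1.34 in T4, -2.05 for the libraries labelled T14 and 1.94 for B4 Pol2; over 3 bins it was 0.76 in T4 and -1.54 for T14. With libraries left out, B4 Myc over IgG ran from 0.39 to 1.04, B4 Pol2 from 2.82 to 3.39 and 10058-F4 from 0.24 to 0.44. None of these ratios over all members changed sign, and the classes by Pol2 were not rerun in this way. Members called in B4 Myc were 2 with limma-trend, 16 with 20 reads, 2 in 1000-base bins, 3 with duplicates removed and 0 to 12 with a library left out. Over all bins, the same fits called 20 of 101175 with limma-trend and 378 of 4209 with 20 reads, where 105 members were tested. They called 33 of 477161 in 1000-base bins and 47 of 94451 with duplicates removed. The 12 members came from the fit without B4 Myc replicate 2, which leaves 1 Myc library. With a replicate block for libraries paired by title, without the one marked wt, 36 of 315 members were called, all higher. Of the 69614 bins tested, 1947 were higher and 355 lower. The same libraries without the block gave 2 members, with 39 bins higher and 0 lower. The titles do not say that the pairs share a batch. Reads of 24 to 30 bases occurred only in replicate 1 of B4 Myc and of B4 IgG. The titles of B4 Myc replicate 2 and B4 IgG replicate 3 both carry the mark rpt. Differences between paired libraries had an r of 0.03 over 101175 bins. Only 4209 of these bins held at least 20 reads, so this r cannot show whether the pairs share an effect. The cause of the higher count with the block was not tested. The 10058-F4 count was 0 in every alternative run. Depth limits single members: 1 read was worth 0.134 to 0.782 RPM.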

Other observations

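B0 Myc reads at the members shared their 5′ position and strand with a read of the Pol2 library with 10058-F4 for 6.54% of 11490 reads, and with one of B4 Pol2 for 2.52%. At positions 2 to 40 bases away the same shares averaged 5.08% and 1.59%.

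By the fixed fold, all 27 members passing in B4 Myc replicate 2 also had B4 Pol2, as did 77 of the 85 passing in replicate 1. Over all bins passing, B4 Pol2 was present at 51.9% for replicate 2 and 12.3% for replicate 1. Both calls used the same B4 IgG libraries.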
